A study of Homo sapiens with 6 samples.

Results

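Transcripts of the circadian clock were measured in subcutaneous tumours of the cell line labelled U87-EV, on one-colour Affymetrix expression arrays; U87 is an established human glioblastoma line. The genes are BHLHE40, BHLHE41, PER1, PER2, PER3, CRY1, CRY2, NR1D1, NR1D2 and RORA, taken by name, with every probe set that the array annotation gives to that gene symbol alone. This choice found 24 probe sets for 8 of the 10 genes, out of 41091 single-gene probe sets for 19775 genes. The 4 probe sets annotated to PER1 also name the microRNA gene MIR6883, and the 3 annotated to NR1D1 also name THRA, so neither gene has a value here. The treated tumours came from mice given bevacizumab, an antibody against human vascular endothelial growth factor A, injected intraperitoneally at 10 mg/kg at intervals of 3 days. The controls came from mice given saline, with 3 arrays per group. In both groups U87 cells had been injected with Matrigel under the skin of female BALB/c SCID mice aged 6 to 8 weeks, dosing began at a tumour volume of 150 to 200 mm3, and it ran until tumours were about 15 to 30 mm across. The groups began with 5 mice each, and nothing in the labels ties an array to a mouse of its own, so p-values measure only the spread between these samples, which may be technical. The labels do not say what EV stands for, and the hour at which tumours were collected is not given in the sources used here.

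The molecular clock is a feedback loop of transcription. CLOCK or its relative NPAS2 pairs with BMAL1 or BMAL2 and activates genes through the E-box, a short DNA motif. The PER and CRY proteins and the basic helix-loop-helix repressors BHLHE40 and BHLHE41 act back on that activation. A second loop joins it, in which the nuclear receptors RORA and RORB activate BMAL1 and the receptors NR1D1 and NR1D2 repress it. BHLHE40 is also known as a gene induced when oxygen is short.

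BHLHE40 and RORA were higher in bevacizumab tumours, and the other 6 measured genes did not pass the test. BHLHE40 rose 2.84-fold and RORA 6.26-fold. No member was lower past the threshold, which is an adjusted p under 0.05 in a limma fit over 10233 genes. Of the 8 members, 2 were called higher and 0 lower, while 19.1% of all genes tested were called, 9.09% higher and 9.97% lower. The median log2 fold change over the 8 members was 0.06, against -0.01 over all genes tested. The groups did not overlap in 2 of the 8 members, against 41.0% of all genes tested. Values throughout are the deposited GCRMA values on the log2 scale, and fold changes are bevacizumab minus control. At the level of probe sets, 16 of the 24 had a mean of at least 4 and were tested, and 7 of those 16 were higher, against 7.46% of all probe sets tested. All 7 belong to BHLHE40 or RORA. One of them, RORA 210479_s_at, had a control mean under 4 and was tested only because its bevacizumab values are high, so its rise is in part set by the filter. With a mean of at least 4 required in each group, 15 probe sets were left and 6 were higher.

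**Figure D1:**
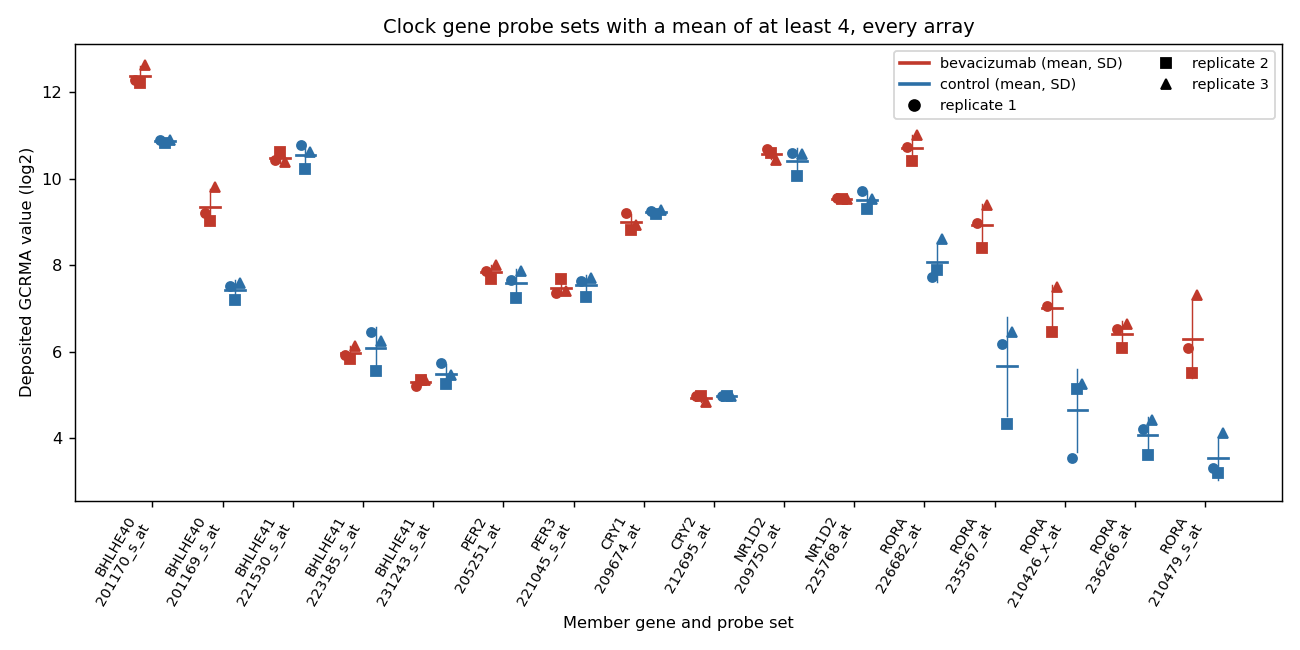
Deposited GCRMA values (log2, y axis) of the 16 tested probe sets (x axis) on each array, with bevacizumab arrays in red to the left of the control arrays in blue; symbols mark the replicate number, horizontal lines the mean and vertical lines the SD of 3 arrays. The groups are apart for both BHLHE40 probe sets and for all 5 RORA probe sets, and overlap for the other 9.

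RNA quality and cell type markers were compared beside these genes. The log2 difference between 3' and 5' probe sets of ACTB, a sign of RNA degradation, was 1.81 ± 0.16 in bevacizumab tumours and 1.38 ± 0.26 in controls (SD, n = 3 each), with a two-sided exact permutation p of 0.2, where 0.1 is the least that the design allows. The GAPDH difference was -0.02 ± 0.03 in bevacizumab tumours and -0.12 ± 0.02 in controls (SD, n = 3 each; exact permutation p = 0.1). Of 8 glioma markers, VIM and CD44 were bright on every array, while GFAP, OLIG2 and S100B were under 4 on every array, so these 3 glial genes do not mark the tumours as glioma. In the same list CHI3L1 rose by 1.60 (limma adjusted p = 0.0174) and NES fell by 1.18 (limma adjusted p = 0.00725). The summed linear level of 8 mural cell markers had a log2 of 11.80 to 12.22 in bevacizumab tumours and 13.06 to 13.41 in controls. ACTA2, the brightest of the 8 on every array, and RGS5 fell, while MYH11 and DES were under 4 throughout. The other 4 mural markers did not pass, with differences of 0.30 for PDGFRB, 0.16 for CSPG4, 0.19 for CNN1 and -0.51 for NOTCH3. CNN1 varied widely, from 2.90 to 9.60 in bevacizumab tumours and from 3.57 to 6.57 in controls. Its difference is therefore not a measured lack of change. On the same scale the sum of 8 fibroblast markers ran from 16.32 to 16.59 in bevacizumab tumours and from 16.59 to 16.77 in controls, with 1 marker (DPT) higher and 1 (COL3A1) lower. Of the endothelial markers 6 of 8 were under 4 on every array, CDH5, VWF and KDR among them, and the list's sum ran from 7.35 to 7.61 in bevacizumab tumours and from 7.31 to 7.42 in controls. Of 7 macrophage markers 6 were under 4 throughout, including PTPRC and CD14, and the sum ran from 6.01 to 6.06 in bevacizumab tumours and from 6.06 to 6.21 in controls. The array targets human transcripts, the host cells in these tumours are mouse, and no step removed mouse RNA. Low values of the endothelial and macrophage markers are therefore no measure of how many such host cells were present. Whether the mural and fibroblast values come from the U87 cells or from mouse RNA was not tested. The part of the mural and fibroblast markers and of RNA quality in the changes of BHLHE40, RORA and the related genes below was not tested beyond the covariate fits given. In these bulk samples fewer cells of a type and less RNA per cell cannot be told apart.

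BHLHE40 (chr3:4979437-4985323, GRCh38.p14, plus strand) encodes a repressor that binds the E-box. On its brighter probe set, 201170_s_at, BHLHE40 read 12.28, 12.22 and 12.63 on bevacizumab arrays 1, 2 and 3, against 10.91, 10.83 and 10.89 on control arrays 1, 2 and 3. The lowest bevacizumab array lay well above the highest control, and the controls were within a narrow band. The log2 fold change of BHLHE40 was 1.51 (SE 0.13, limma adjusted p = 0.00259), the 227th highest of 10233 genes. Its other probe set, 201169_s_at, read 9.22, 9.02 and 9.82 in bevacizumab tumours and 7.51, 7.19 and 7.60 in controls, a change of 1.92 (SE 0.23, limma adjusted p = 0.00816 over probe sets). On both probe sets bevacizumab 3 was the highest array and bevacizumab 2 the lowest of its group. Leaving out any 1 of the 6 arrays kept the call of BHLHE40 (1.38 to 1.59). Adjusting for the ACTB difference gave a change of 1.66 and an adjusted p of 0.0580, so the call was lost.

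BHLHE41 (chr12:26120030-26125037, minus strand) is the paralog of BHLHE40 and binds the same motif. On its brightest probe set, 221530_s_at, BHLHE41 read 10.44, 10.61 and 10.38 in bevacizumab tumours and 10.78, 10.22 and 10.61 in controls, and the groups overlapped. The difference was -0.06 with a 95% interval of -0.45 to 0.33 (limma adjusted p = 0.811). The probe sets 223185_s_at and 231243_s_at had differences of -0.13 and -0.17, both with overlapping groups, and 231242_at stayed between 2.29 and 2.40. Subtracted array by array, the change of BHLHE40 exceeded that of BHLHE41 by 1.57 on the log2 scale. The 2 groups of these differences could not overlap, since BHLHE40 was apart by more than the whole range of BHLHE41. This comparison therefore adds nothing to the call of BHLHE40. Over 3 such gene pairs, picked after their values were seen, the two-sided exact permutation p was 0.1 for each, raw and adjusted, the smallest that 3 arrays against 3 allow.

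The bases before the start of these genes are shown for the paralogs, since both carry the E-box that their own proteins bind, and for RORA, the member with the larger change. Each is the stretch of 250 bases before the RefSeq start on GRCh38.p14, at chr3:4979187-4979436 on the plus strand for BHLHE40, chr12:26125038-26125287 on the minus strand for BHLHE41 and chr15:60627531-60627780 on the minus strand for RORA. Capitals mark ACGTG and GCGTG on either strand, both forms of the core of the motif bound by hypoxia-inducible factors, and with ACGTG the E-box CACGTG, which contains it; in the RORA window AGGTCA, the core of the motif that ROR receptors bind, would be marked as well.
BHLHE40: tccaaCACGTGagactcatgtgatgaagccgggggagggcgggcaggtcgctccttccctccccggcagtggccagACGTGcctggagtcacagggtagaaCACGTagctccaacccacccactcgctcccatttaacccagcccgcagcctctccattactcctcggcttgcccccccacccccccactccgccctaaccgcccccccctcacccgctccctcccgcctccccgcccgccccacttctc
BHLHE41: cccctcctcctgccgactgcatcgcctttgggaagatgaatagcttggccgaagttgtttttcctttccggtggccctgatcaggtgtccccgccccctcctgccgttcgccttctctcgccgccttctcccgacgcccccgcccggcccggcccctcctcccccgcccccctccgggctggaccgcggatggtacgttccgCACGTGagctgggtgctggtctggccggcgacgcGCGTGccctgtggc
RORA: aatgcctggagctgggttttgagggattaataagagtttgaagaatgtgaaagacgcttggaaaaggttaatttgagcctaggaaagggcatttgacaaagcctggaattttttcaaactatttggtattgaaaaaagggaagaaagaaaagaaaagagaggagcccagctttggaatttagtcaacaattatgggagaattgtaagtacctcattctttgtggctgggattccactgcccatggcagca
The E-box begins 245 bases before the start of BHLHE40 and 48 bases before that of BHLHE41. The BHLHE40 window holds ACGTG at 2 further places, at 174 and 149 bases before the start, and no GCGTG; the BHLHE41 window holds GCGTG once, at 14 bases before the start, and no further ACGTG. The RORA window holds none of these letters; it lies inside the RORA gene, whose RefSeq span is chr15:60488284-61229302, and so precedes an internal start and not the outermost one. Among 35114 such windows of all genes, 6.35% hold CACGTG, 18.5% hold ACGTG and 32.2% hold GCGTG on either strand, and 12.1% hold AGGTCA. The 10 members have 13 windows, and 4 members have CACGTG in at least 1 window (BHLHE40, BHLHE41, PER1 and NR1D2). This counts genes, while the shares above count windows, and NR1D2 has CACGTG in only 1 of its 2 windows. Of these 4, BHLHE40 was called, BHLHE41 and NR1D2 were not and PER1 has no value. ACGTG lies in a window of the same 4 and also of PER2, CRY1, CRY2 and NR1D1, so it does not set BHLHE40 apart. PER2, CRY1 and CRY2 were not called and NR1D1 has no value. These matches are a description of letters, not of binding.

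The PER and CRY genes encode the repressors of the main loop. PER2 (chr2:238244044-238300065) read 7.86, 7.68 and 8.00 on 205251_at in bevacizumab tumours, against 7.65, 7.23 and 7.86 in controls. The groups overlapped, and the difference of 0.26 had an interval of -0.18 to 0.71 (limma adjusted p = 0.339). PER3 (chr1:7784291-7845177) read 7.35, 7.67 and 7.41 on 221045_s_at in bevacizumab tumours and 7.63, 7.27 and 7.71 in controls, again overlapping. Its difference was -0.06 (interval -0.43 to 0.31, adjusted p = 0.808). The second probe set of PER2 and 2 of the other 3 of PER3 lay at or near 2.23, the floor of the deposited values, which gives no order between arrays, and the third of those, 1569701_at, ran from 2.60 to 3.05 in bevacizumab tumours and from 2.73 to 3.20 in controls.

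CRY1 (chr12:106991364-107093549) read 9.21, 8.82 and 8.94 on 209674_at in bevacizumab tumours and 9.26, 9.19 and 9.27 in controls. Bevacizumab 1 lay among the controls, and the other bevacizumab arrays were below them. The difference was -0.25 (interval -0.54 to 0.04, limma adjusted p = 0.190), and without bevacizumab 1 it was -0.36 with an adjusted p of 0.0496, just past the threshold. CRY2 (chr11:45847118-45883244) has 1 probe set, 212695_at, which gave exactly 4.98 on 5 of the 6 arrays and 4.84 on bevacizumab 3. A repeated value of this kind carries no order between arrays, so the difference of -0.05 (adjusted p = 0.713) is not a measured lack of change.

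Of the nuclear receptors in the second loop, RORA moved and NR1D2 did not pass. RORA, which activates transcription of BMAL1, has 8 probe sets, of which 5 were tested and called higher, 210479_s_at among them only through its bevacizumab values. On the brightest, 226682_at, RORA read 10.73, 10.41 and 11.02 in bevacizumab tumours, against 7.72, 7.89 and 8.61 in controls. Every bevacizumab array was above every control, and control 3 was the highest of its group. The log2 fold change of RORA was 2.65 (SE 0.27, limma adjusted p = 0.00449), the 63rd highest of 10233 genes. Leaving out any 1 of the 6 arrays kept the call of RORA (2.47 to 2.91). With the ACTB covariate the change was 2.24 and the adjusted p 0.0683, and averaging all 8 probe sets, of which 3 are dim, gave a change of 1.67 (adjusted p = 0.00645).

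The other RORA probe sets ran the same way with wider spread. RORA 235567_at read 8.98, 8.40 and 9.38 in bevacizumab tumours and 6.17, 4.34 and 6.46 in controls, a change of 3.26 (SE 0.60, limma adjusted p = 0.0216 over probe sets). The low control was control 2. RORA 236266_at read 6.53, 6.09 and 6.64 in bevacizumab tumours and 4.22, 3.61 and 4.41 in controls, a change of 2.34. RORA 210479_s_at read 6.09, 5.51 and 7.31 in bevacizumab tumours and 3.31, 3.19 and 4.11 in controls, a change of 2.77, or 2.27 with values under 4 set to 4; its control mean of 3.54 lay under the minimum for testing. RORA 210426_x_at, whose suffix marks probes that can bind other transcripts, read 7.07, 6.46 and 7.50 in bevacizumab tumours and 3.55, 5.14 and 5.26 in controls, a change of 2.36. On all 5 probe sets bevacizumab 3 was the highest and bevacizumab 2 the lowest of the treated arrays, and control 3 the highest of the controls. The change stayed past the threshold without any 1 array for 226682_at and 236266_at. The call of 210426_x_at was lost in each of the 6 such fits (adjusted p 0.0584 to 0.0913), that of 235567_at without control 1 or any 1 bevacizumab array (highest adjusted p 0.0678) and that of 210479_s_at without control 1 or control 2 (highest adjusted p 0.0845). The probe sets 239550_at, 240951_at and 241760_x_at stayed between 2.23 and 2.28 on every array.

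NR1D2 (chr3:23945286-23980617), which represses BMAL1, read 10.69, 10.60 and 10.44 on 209750_at in bevacizumab tumours and 10.58, 10.07 and 10.58 in controls. The groups overlapped, with a difference of 0.16 (interval -0.24 to 0.56, limma adjusted p = 0.518). Its probe set 225768_at read 9.55, 9.54 and 9.52 in bevacizumab tumours and 9.71, 9.29 and 9.54 in controls, a difference of 0.02. The bevacizumab arrays of 225768_at all lay within the range of the controls. The change of RORA exceeded that of NR1D2 by 2.48 when subtracted array by array (exact permutation p = 0.1, the smallest possible). The groups of these differences could not overlap, since RORA was apart between groups by more than the whole range of NR1D2 on 209750_at. The comparison of RORA with NR1D2 therefore adds nothing to the call of RORA. This pair too was picked after its values were seen.

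**Figure D2:**
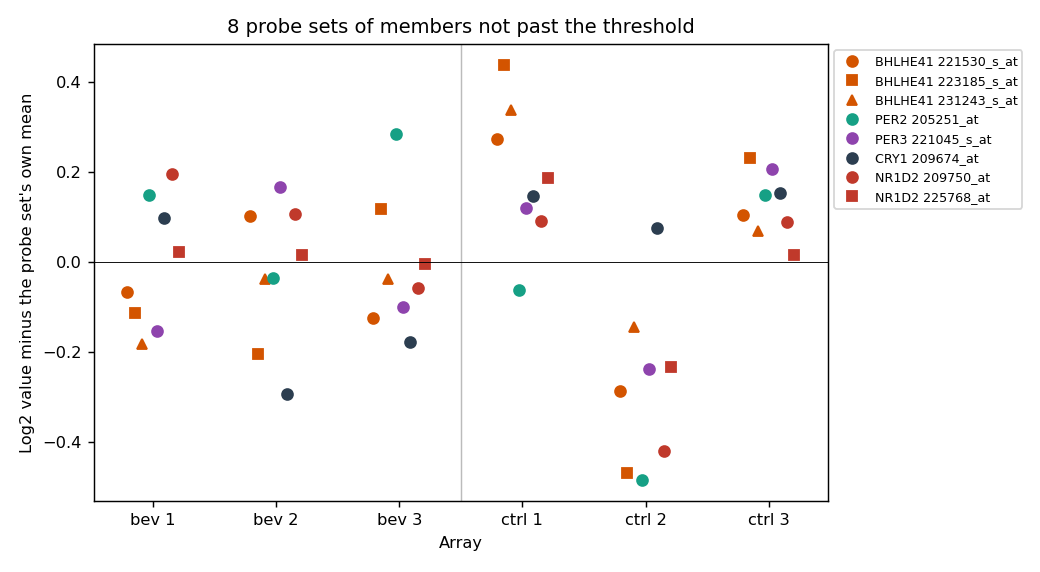
Log2 value minus the probe set's own mean (y axis) on each array (x axis; bev stands for bevacizumab and ctrl for control) for the 8 tested probe sets of BHLHE41, PER2, PER3, CRY1 and NR1D2. The groups overlap for each, and control 2 is the lowest control for all 8.

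The remaining clock genes were taken from lists of 30 genes, of which 26 had values here and 22 were bright enough to test. Among these 22, 4 were higher, 3 lower and 15 did not pass, against 9.09% higher and 9.97% lower over all genes. Their median log2 fold change was 0.04, against -0.01 over all genes. The groups did not overlap in 12 of the 22, against 41.0% of all genes tested. Of the 30, 4 were not analysed here. USP2, DBP, HLF and PPARG were under 4 on every array and were not tested.

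**Figure D3:**
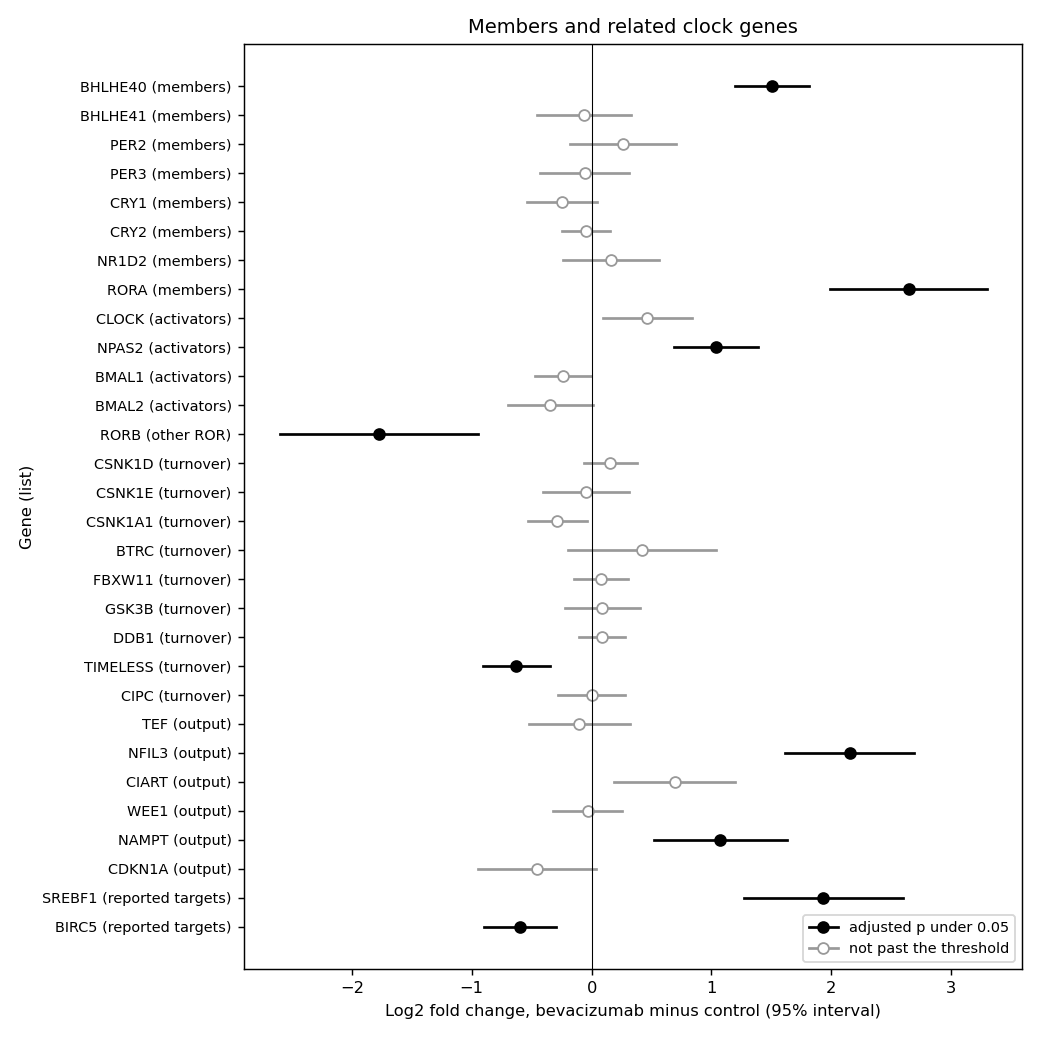
Log2 fold change, bevacizumab minus control, with its 95% interval (x axis) for the 8 members and the 22 related clock genes tested (y axis, list in brackets); filled black points passed the threshold. RORA at 2.65, NFIL3 at 2.15 and SREBF1 at 1.93 lie farthest to the right and RORB at -1.78 farthest to the left.

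Among the activators, NPAS2 rose and CLOCK, BMAL1 and BMAL2 did not pass. NPAS2, the relative of CLOCK, read 8.23, 8.19 and 8.40 in bevacizumab tumours and 7.04, 7.17 and 7.51 in controls, without overlap. Its change was 1.03 (SE 0.14, limma adjusted p = 0.00884), and its second tested probe set, 213462_at, gave 0.95. The mean of all 5 NPAS2 probe sets, 3 of them dim, changed by 0.47 (adjusted p = 0.0251). CLOCK read 9.81, 10.33 and 10.24 in bevacizumab tumours and 9.68, 9.74 and 9.57 in controls; the groups were apart, but the difference of 0.46 had an adjusted p of 0.0846. Its probe sets disagreed, since 225856_at passed at 0.57 (adjusted p = 0.0270 over probe sets) and 204980_at did not at 0.14. BMAL1, the partner of both, had a difference of -0.24 (interval -0.48 to -0.0047, adjusted p = 0.134), and -0.01 on its other probe set. BMAL2 had a difference of -0.34 (adjusted p = 0.151), with -0.39 and -0.29 on its other probe sets.

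RORB, a relative of RORA known best from the retina and brain, fell. On 231040_at RORB read 6.17, 7.01 and 5.82 in bevacizumab tumours, against 7.94, 7.85 and 8.53 in controls. No array of 1 group reached into the other. The change was -1.78 (SE 0.34, limma adjusted p = 0.0202), and it was -0.80 for the mean of all 3 RORB probe sets, 2 of them dim (adjusted p = 0.0391). Without control 1, 2 or 3 its call was lost, with adjusted p-values of 0.0608 to 0.0677. The change of RORA exceeded that of RORB by 4.42, array by array (exact permutation p = 0.1, the smallest possible). The groups of these differences could not overlap, since each gene was already apart between groups in opposite directions. The pair was picked after its values were seen.

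Of 9 tested genes for the turnover and partners of clock proteins, 1 fell and 8 did not pass, against 9.97% of all genes lower. TIMELESS, which in mammals also acts at replication forks, read 6.69, 6.80 and 6.43 in bevacizumab tumours and 7.21, 7.30 and 7.29 in controls. Its change was -0.63 (SE 0.12, limma adjusted p = 0.0183), or -0.31 for the mean of its 2 probe sets, 1 of them at the floor (adjusted p = 0.0401), and the call was lost without control 1, 2 or 3 (adjusted p 0.0621 to 0.0718). The casein kinase genes, whose products phosphorylate PER proteins, had differences of -0.29 for CSNK1A1 (adjusted p = 0.0978) and 0.16 for CSNK1D (adjusted p = 0.266). Other tested probe sets of CSNK1A1 went both ways, among them -0.42 on 206562_s_at and 0.20 on 208865_at. The other tested probe set of CSNK1D, 208774_at, gave -0.24, and no probe set of either gene passed. The ubiquitin ligase subunit genes BTRC and DDB1 had differences of 0.42 (adjusted p = 0.278) and 0.09 (adjusted p = 0.464), both with overlapping groups.

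Among 6 tested clock output genes, 2 rose and 4 did not pass, against 9.09% of all genes higher. NFIL3, a repressor of genes with the D-box motif, read 10.92, 10.80 and 11.14 in bevacizumab tumours and 8.39, 8.78 and 9.23 in controls. This is a change of 2.15 (SE 0.22, limma adjusted p = 0.00458), the 113th highest of 10233 genes, and it held in each of the 6 fits without 1 array. NFIL3 was thus apart between groups by more than the spread within them. NAMPT, which makes a precursor of NAD, read 13.84, 13.04 and 13.72 in bevacizumab tumours and 12.36, 12.37 and 12.65 in controls. Its change was 1.07 (SE 0.23, adjusted p = 0.0263), but the call held in only 1 of the 6 fits without an array, the fit without bevacizumab 2 (adjusted p 0.0156 to 0.0949 over the 6), and 2 of its 4 probe sets did not pass. CIART, a repressor of CLOCK and BMAL1, had 6.99, 6.23 and 6.71 in bevacizumab tumours and 6.08, 5.75 and 6.01 in controls; the difference was 0.69 with an adjusted p of 0.0659. CDKN1A had a difference of -0.45 (adjusted p = 0.165).

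Of the genes reported as targets of BHLHE40 or BHLHE41, 2 were tested. SREBF1, a regulator of lipid synthesis, read 5.83, 6.86 and 6.62 in bevacizumab tumours and 4.52, 4.31 and 4.68 in controls, and it rose by 1.93 (SE 0.27, limma adjusted p = 0.00918). The inhibitor of apoptosis gene BIRC5 read 10.32, 10.19 and 9.93 in bevacizumab tumours and 10.65, 10.81 and 10.77 in controls, and it fell by 0.59 (SE 0.12, limma adjusted p = 0.0248). The groups were apart for both on these probe sets. Of the other BIRC5 probe sets, 210334_x_at passed at -1.11 (limma adjusted p = 0.0119 over probe sets). Not past were 202094_at at -0.81 (adjusted p = 0.165) and 1555826_at at -0.59 (adjusted p = 0.139), the latter with overlapping groups. The BIRC5 call was lost without bevacizumab 2 or any 1 control (highest adjusted p 0.0906). With the ACTB covariate none of the 7 related genes named as changed passed (adjusted p 0.0670 for NFIL3, 0.0760 for RORB, 0.0858 for BIRC5, 0.0888 for TIMELESS, 0.0926 for SREBF1, 0.107 for NPAS2 and 0.213 for NAMPT), and their directions were kept. Without the filter on dim genes, which tests more genes, NFIL3 passed (adjusted p = 0.0383) and the other 6 did not (adjusted p 0.0510 for NPAS2, 0.0619 for SREBF1, 0.0681 for TIMELESS, 0.0923 for BIRC5, 0.112 for RORB and 0.129 for NAMPT). With probe sets averaged, NAMPT did not pass (0.90, adjusted p = 0.0511), and SREBF1, whose averaged level was under 4, was not tested.

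The genes whose pattern over the 6 arrays lay nearest to BHLHE40 and RORA were found among all genes tested, each gene centred on its own mean. Nearest to BHLHE40 were ID2, a helix-loop-helix gene without a DNA-binding region, with a root mean square difference of 0.09 on the log2 scale, WASF3, an actin regulator gene (0.10), and VLDLR, a lipoprotein receptor gene (0.10). ID2 had a change of 1.66, WASF3 of 1.48 and VLDLR of 1.41. Nearest to RORA were the chemokine gene CXCL8 (root mean square difference 0.16), TNFAIP3, a brake on NF-kB (0.18), and the aldolase gene ALDOC (0.22). CXCL8 had a change of 2.43, TNFAIP3 of 2.88 and ALDOC of 2.43. The measure is a description over 6 arrays in 2 groups and mostly picks genes with a change of like size.

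**Figure D4:**
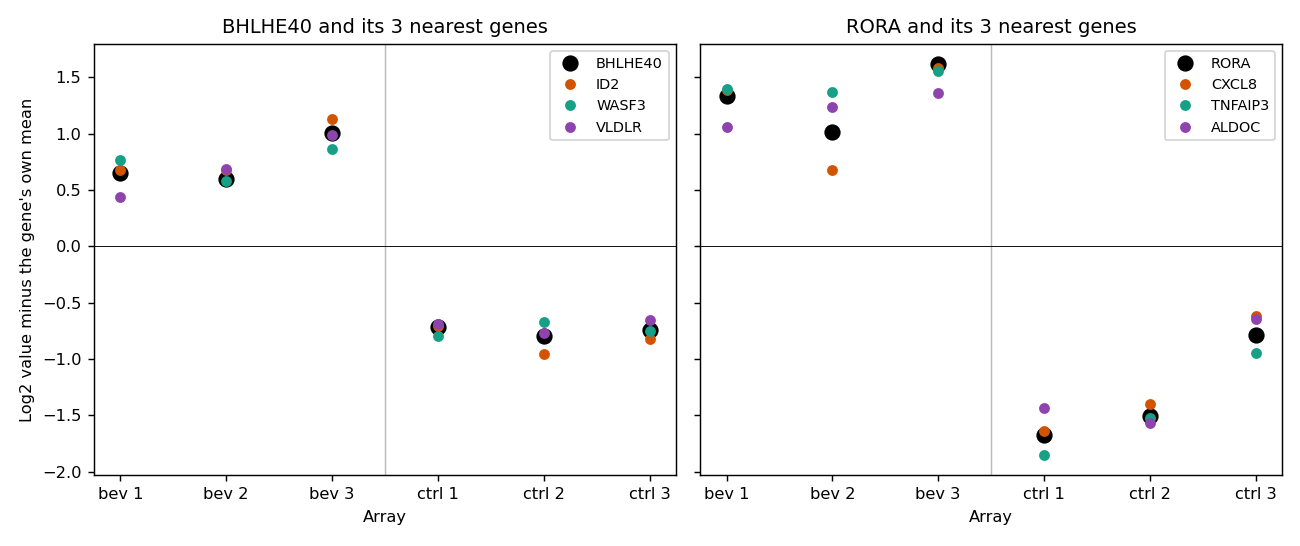
Log2 value of each gene minus its own mean over the 6 arrays (y axis) on each array (x axis; bev stands for bevacizumab and ctrl for control), for BHLHE40 with ID2, WASF3 and VLDLR on the left and RORA with CXCL8, TNFAIP3 and ALDOC on the right. BHLHE40 controls lie close together, while RORA and its neighbours are higher on control 3 than on controls 1 and 2.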

How the data were processed

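RNA was measured on 6 arrays, 3 per group. The authors deposited log2 values made with GCRMA; GCOS 1.1.1.052 and GCRMA are named in the submitters' processing notes, and the log2 scale was taken from the range of the values (highest 15.99). Of 54675 probe sets, 41091 outside the array controls had 1 gene symbol, 1801 several and 11777 were not listed. Symbols were updated through RefSeq gene identifiers for 41037. The probe set with the highest mean stood for a gene; means of at least 4 were tested (10233 genes, 18469 probe sets). The comparison used lmFit and eBayes of limma 3.58.1 (R 4.3.3), two-sided, with Benjamini-Hochberg adjustment. The array medians lay between 2.49 and 2.51, and the number of arrays limits the precision. No array dates or batches were given, and no scanner files were used, so background correction could not be varied.

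Members, lists and tests were chosen with earlier results of these data known. Named were all members, related genes past the threshold and up to 4 others per list with the smallest p, and the 3 genes nearest to each changed member. In simulated data with 200 of 10233 genes changed, the fit recovered 24% of changes of 0.5, 70% of changes of 1 and 90% of changes of 2 on the log2 scale. It made 150 calls, 10 of them false. The simulated share of changed genes was far below the 19.1% called here, and recovery depends on that share. These rates therefore do not measure recovery in the deposited data. The labels do not say whether replicate numbers pair the arrays, and the main fit did not pair them. No per-sample column was left unused (0). Promoter sequences are RefSeq's, GRCh38.p14.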

Additional observations from a re-analysis of the deposited data

How the results depend on the processing

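BHLHE40 and RORA kept their direction in all 14 other settings and their calls in 13, the exception being the ACTB covariate (1.66 and 2.24, both not past), under which 24 genes in all, 0 members, 0 member probe sets and 0 related genes in either direction passed; the cause was not tested. Without the filter on dim genes 598 genes passed, with 2 member probe sets and 1 higher and 0 lower related genes. A filter at 6, which tests fewer probe sets, gave 4 member probe sets. It also gave 4 higher related genes, but SREBF1 was not tested there, so these include a gene not called in the main fit. Averaging probe sets gave 2 higher related genes. A replicate block gave 904 genes and 0 lower related genes, and BHLHE40 and RORA kept their calls (limma adjusted p = 0.0137 and 0.00701). Same-numbered arrays deviated with correlations of -0.05, -0.01 and -0.05, against -0.21 to 0.23 between arrays of different numbers. These values show no sign of pairing, but 3 arrays a group cannot exclude it. Leaving out 1 array gave 558 to 2074 genes (578, 558 and 897 without control 1, 2 and 3, 1075 without bevacizumab 2), 2 higher members throughout, 0 to 1 lower (CRY1 without bevacizumab 1, -0.36 against -0.25; its range was -0.36 to -0.17), 4 to 6 member probe sets, 3 to 5 higher and 0 to 3 lower related genes. Uncalled differences changed sign for PER3 (-0.19 to 0.03; 0.0029 without bevacizumab 1 and 0.030 without control 3), BHLHE41 (-0.22 to 0.06; 0.061 without control 1) and NR1D2 (-0.01 to 0.25; -0.0086 without control 2). Of the 7 related genes called, NFIL3, NPAS2 and SREBF1 were called in all 6 such fits. Unadjusted, 3664 genes had p under 0.05.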

Other observations

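Control 2 read low across most of the members, called or not. It was the lowest control in 13 of the 16 tested probe sets and the lowest of all arrays in 11. In the 7 called probe sets every control lay under every bevacizumab array, so the lowest control was also the lowest of all. Among the 8 of BHLHE41, PER2, PER3, CRY1 and NR1D2, control 2 was the lowest of all arrays in 6. The 13 are all 8 of BHLHE41, PER2, PER3, CRY1 and NR1D2, both of BHLHE40 and 3 of the 5 of RORA; control 1 was the lowest in RORA 226682_at and 210426_x_at, and the CRY2 value repeats. Over all 18469 probe sets tested, control 2 was the lowest control in 44.5% and the lowest of all arrays in 21.3%. Probe sets of a gene share its transcripts, so the 13 are 7 genes. PER2 read 7.23 on control 2, against 7.65 and 7.86 on the other controls, and NR1D2 read 10.07, against 10.58 on both. Without control 2 the difference of NR1D2 was -0.01 and that of PER2 0.09. The trait was noticed after the values were seen, and no test was made.

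Among the bevacizumab arrays RORA and BHLHE40 shared an order, which was not theirs alone. Bevacizumab 3 was the highest treated array in all 7 tested probe sets of the pair and bevacizumab 2 the lowest in all 7, while over all probe sets tested bevacizumab 3 was the highest treated array in 30.0% and bevacizumab 2 the lowest in 25.0%. The probe sets of a gene share its transcripts, so 7 probe sets are 2 genes. PER2 205251_at and BHLHE41 223185_s_at, which were not called, had the same order. Among all 16 tested member probe sets, bevacizumab 3 was the highest treated array in 9 and bevacizumab 2 the lowest in 10. No test of this order was made.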
